A study of Mus musculus with 4 samples.

Results

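The m6A reader genes are here the genes of proteins that bind N6-methyladenosine (m6A) in RNA or have been tied to it. The peaks on their own transcripts in mouse natural killer (NK) cells are described. The 10 genes were Ythdf1, Ythdf2, Ythdf3, Ythdc1, Ythdc2, Igf2bp1, Igf2bp2, Igf2bp3, Hnrnpa2b1 and Hnrnpc. Their peaks were the distinct entries of the deposited peak list that carried the Ensembl identifier of 1 of these genes. There were 18 such peaks among 20727 distinct peaks in 12351 genes, and 10 of the 10 genes had at least 1.

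The NK cells came from the spleen of wild-type C57BL/6 mice, and the assay was MeRIP-seq (methylated RNA immunoprecipitation followed by sequencing), in which an m6A antibody pulls down RNA fragments that are then sequenced beside untreated input fragments. There were 4 libraries, 2 immunoprecipitates and 2 inputs. The methods describe that the cells were first expanded in the mice with the pLIVE-IL-15 plasmid, which makes the mice overexpress the NK growth factor IL-15, so all 4 libraries describe IL-15-expanded cells. The labels do not say whether the replicates came from separate mice.

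Readers of the YTH family hold the methylated base in a pocket of their YTH domain. The YTHDF proteins act in the cytoplasm and are best known for mRNA decay and translation, while YTHDC1 is nuclear and linked to splicing and export, and YTHDC2 is an RNA helicase known from meiosis. IGF2BP proteins bind and stabilise mRNAs and are typical of fetal tissues and tumours, and HNRNPA2B1 and HNRNPC are abundant nuclear RNA-binding proteins that have been tied to m6A in primary transcripts and to RNA structure changed by it. Across mammalian mRNAs m6A is typically found in the motif DRACH (where D stands for A, G or T, R for either purine A or G, and H for A, C or T), often near the stop codon and in the 3′ untranslated region (UTR).

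As examples, not a complete set, the DRACH site nearest to the centre of each of 10 reader gene peaks is given here with 12 bases on either side, so that the letters under the peaks can be read. These are sequences of the GENCODE M21 transcripts for GRCm38, 5′ to 3′ on the strand of the gene, with the DRACH core in capitals and the methylated position, if the site is used, at its central A.
Ythdf1 peak 1, 3′ UTR, chr2:180904531-180904559, minus strand: agataccttccgAAACTatttactccaaa
Ythdf2 peak 1, 3′ UTR, chr4:132186160-132186188, minus strand: gaaaacattgtaAAACAtgtagtgaatgt
Ythdf3 peak 2, 3′ UTR, chr3:16216655-16216683, plus strand: aagctgatgttgAAACAgtttgcagttaa
Ythdc1 peak 1, retained-intron isoform, chr5:86808353-86808381, plus strand: aattaaagtttaTGACCtctccatgcaga
Ythdc1 peak 2, 3′ UTR, chr5:86836532-86836560, plus strand: agcctcccttttAAACTgtacactggctt
Igf2bp2 peak 1, 3′ UTR, chr16:22059212-22059240, minus strand: agtgacaaagaaAAACAgagaatattgga
Igf2bp3 peak 1, 3′ UTR, chr6:49086903-49086931, minus strand: gaattgtcagagGAACAcaacattaagcc
Hnrnpa2b1 peak 3, coding sequence, chr6:51464428-51464456, minus strand: cggaggtggttaTGACAactatggaggag
Hnrnpa2b1 peak 4, 3′ UTR, chr6:51463012-51463040, minus strand: aaaatgcctttgAGACAgtttcttagctt
Hnrnpa2b1 peak 5, 3′ UTR, chr6:51461269-51461297, minus strand: ttttctgatttaAAACTtcatttagtaca
A MeRIP peak is wider than a site, so which adenosine was bound is not known from these data.

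Each peak had 1 fold enrichment, the ratio of immunoprecipitate to input signal, and 1 peak-calling p-value for all 4 libraries together. The list gave no value per library, so the depth of each library is unknown and no error between replicates or test across replicates can be given for any peak. Peaks enriched at least 5-fold are called strong, and log10 p is the logarithm of the peak-calling p-value, unadjusted, with -1.3 as the weakest value in the list. Positions are on GRCm38 and isoforms are those of GENCODE M21. As a check of the label, 10 of 10 NK marker genes had a peak, and so had 4 of 6 T cell and 5 of 5 myeloid markers. The T cell markers Cd4 and Cd8a had no peak, while 3 T cell markers had a strong one (Cd3d 5.69-fold, Cd3e 30.3-fold and Cd3g 31.6-fold) and 0 NK and 0 myeloid markers had. These 3 differed, since the log10 p was -1.63 at the Cd3d peak and -6.35 at the Cd3e peak. The 31.6-fold Cd3g peak met no coding isoform, and the highest Cd3g fold on a coding isoform was 3.79. Of the 12351 genes in the list, 49.6% reached 5-fold, so a strong peak was common. The Cd3 genes and 2 others are named here after their values were seen. The B cell gene Pax5 had a peak of 75.9-fold and the erythroid gene Hbb-bs one with a log10 p of -2440. A peak is a ratio and not a level, so RNA of other cells in the sort was not tested.

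Most reader gene peaks had a low fold enrichment and a p-value under 0.001. Their median fold was 1.89 (interquartile range 1.75 to 3.79, extremes 1.36 and 47.4), beside a median of 2.66 over all peaks and 2.37 over peaks of protein-coding genes. A fold enrichment under 2 was found in 10 of 18 reader peaks and in 36.1% of all peaks. Strong peaks numbered 4 of 18 (22.2%), beside 34.6% of all peaks and 29.5% of peaks of protein-coding genes. The p-value was under 0.001 in 14 of 18 reader peaks (77.8%), beside 61.5% of all peaks, and both criteria were met by 3 reader peaks, beside 19% of all peaks. By gene, 4 of 10 readers had a strong peak, beside 49.6% of the genes with a peak, and 9 of 10 had a peak with a p-value under 0.001, the exception being Ythdc2. Having any peak was common, since 46.3% of the annotated protein-coding genes had 1.

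Of the 4 strong peaks 3 fell in the Igf2bp genes. Each of the 3 Igf2bp genes had 1 peak, and 3 of these 3 peaks were strong, with fold enrichments of 17.1 to 47.4. A strong peak was found in 49.6% of all genes with a peak. The log10 p was only -3.75 at Igf2bp1, whose peak spanned the whole gene, and -3.33 at Igf2bp2. Their exact pairs of fold enrichment and p-value were carried by 138 and 178 peaks of the list. In the other 7 genes 1 of 15 peaks was strong, the Ythdc1 peak on a non-coding isoform, and the median was 1.8. The 8 peaks of the 5 YTH genes had a median of 1.81 and the 7 peaks of the 2 Hnrnp genes a median of 1.78.

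**Figure D1:**
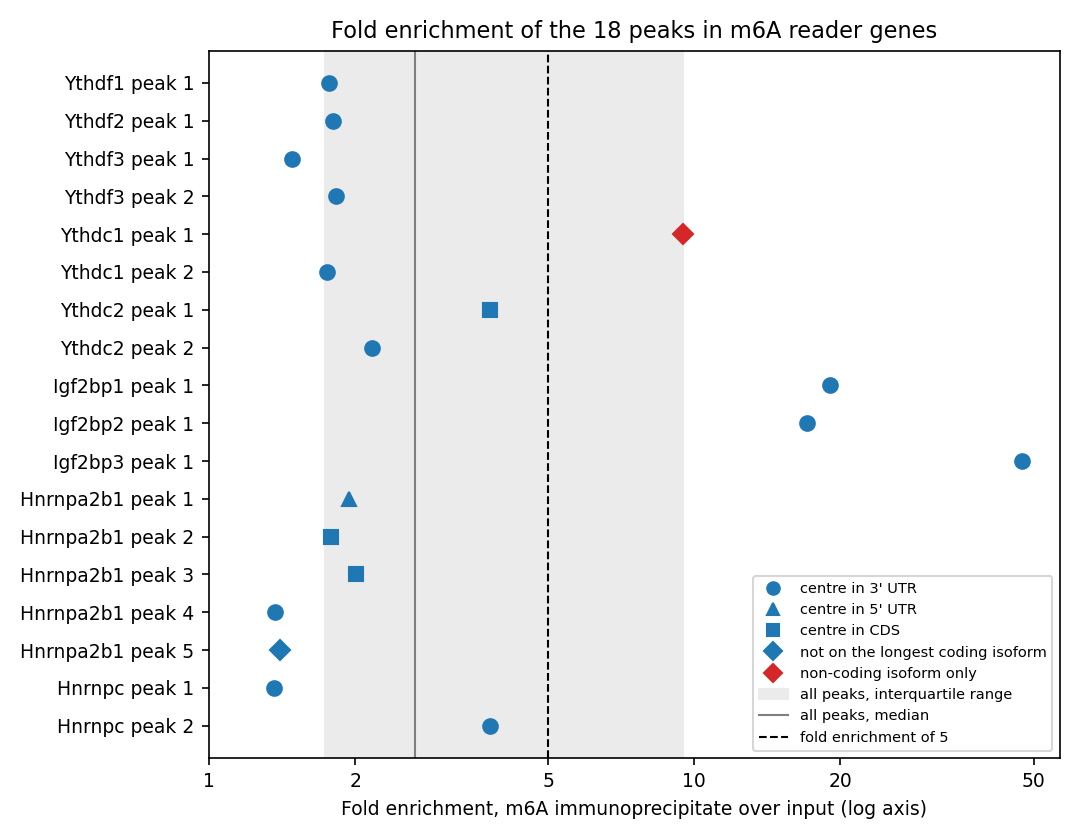
Fold enrichment (log axis) of each of the 18 reader gene peaks, with the symbol giving the transcript region of the peak centre, the grey band the interquartile range of all peaks (1.73 to 9.48) and the dashed line a fold enrichment of 5. The 3 Igf2bp peaks and Ythdc1 peak 1 lie right of the line, and 10 peaks lie under a fold enrichment of 2.

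The isoform class of a peak says whether it overlaps an exon of a protein-coding isoform, an exon of non-coding isoforms only, or no exon. Of the 18 reader peaks, 17 (94.4%) overlapped an exon of a protein-coding isoform, 1 overlapped an exon of a non-coding isoform only and 0 lay outside exons. Over all peaks 79.4% were on a coding isoform, and over peaks of protein-coding genes 90.2%. The 10 genes had 71 annotated isoforms, 34 of them coding, and 6 of the 18 peaks met every coding isoform of their gene. A retained-intron isoform was met by 8 peaks and an isoform annotated for nonsense-mediated decay by 6. The 5 peaks of Hnrnpa2b1 were all among these 8, and all but its peak 4 were among the 6. The genomic span of 13 peaks lay wholly in exons, and in the others it took in introns. The counts of isoforms met and of spans were made for reader peaks only, so no share over all peaks stands beside them.

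Ythdf1, Ythdf2 and Ythdf3 encode the cytoplasmic readers, and their 4 peaks lay in the last exon, in the 3′ UTR of coding isoforms. The fold enrichments ran from 1.48 to 1.83, so all 4 were below the median of all peaks. No Ythdf peak met a non-coding isoform.

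Ythdf1 (ENSMUSG00000038848) had 1 peak at chr2:180904496-180904765, of 270 nt, enriched 1.77-fold (log10 p -12.1). It lay in exon 5 of 5 of Ythdf1-201, with its centre 1011 nt past the stop codon and its end 119 nt from the end of a 1265-nt 3′ UTR. Of 3 coding isoforms 1 was met, because Ythdf1-202 and Ythdf1-203 end before the peak. The annotated 3′ UTR of Ythdf1-202 is 272 nt long.

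Ythdf2 (ENSMUSG00000040025), whose protein recruits the CCR4-NOT deadenylase complex, had 1 peak at chr4:132186047-132186286, of 240 nt. Its fold enrichment was 1.8 and its log10 p -5.82. On Ythdf2-203 the centre was 757 nt past the stop codon, at 37.6% of a 2012-nt 3′ UTR. The other 2 coding isoforms end before it. Copies elsewhere in the genome (at least 60 nt at 95% identity or more) were sought for reader peaks only, so their share over all peaks is unknown. They were found for 6 of the 18 reader peaks, and this was 1 of them. An alignment of 221 nt of the peak to a stretch of chromosome X (chrX:70419860-70420080) was 96.4% identical, and that stretch held no annotated gene and no peak of the list. The peak had 2 copies, and the other was not examined for genes or peaks.

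Ythdf3 (ENSMUSG00000047213) had 2 peaks in the far 3′ UTR. Peak 1 at chr3:16216108-16216198, of 91 nt, was enriched 1.48-fold (p-value 0.00138). Peak 2 at chr3:16216558-16216767, of 210 nt, was enriched 1.83-fold (p-value 0.000617). Their centres were 2175 nt and 2684 nt past the stop codon of Ythdf3-201, in a 3′ UTR of 3059 nt. Both lay on Ythdf3-201 and Ythdf3-202 and beyond the end of the third coding isoform, Ythdf3-203, whose 3′ UTR is 1028 nt.

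Ythdc1 and Ythdc2 encode the other 2 YTH proteins, and their 4 peaks differed in isoform class. Ythdc1 held the strong peak and the most significant one of the pair of genes, at different ends of the gene. Only 1 of the 4 peaks had a p-value under 0.001.

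Ythdc1 (ENSMUSG00000035851) peak 1 at chr5:86807896-86808824, of 929 nt, was enriched 9.48-fold (p-value 0.0204). All 929 nt lay in the single exon of Ythdc1-209, a retained-intron isoform, and 0 nt in an exon of a coding isoform, so its class is non-coding isoform only. On the longest coding transcript the peak is in intron 1, and it is intronic to 3 of 3 coding isoforms. Copies at other loci were found for 22.8% of its bases, in 435 alignments. Ythdc1 thus had its highest fold and its weakest p-value in the same peak, and the coding isoforms were not touched by it.

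Ythdc1 peak 2 at chr5:86836449-86836659, of 211 nt, was enriched 1.75-fold (log10 p -18.9). It met 3 of 3 coding isoforms, the decay isoform Ythdc1-208 and the retained-intron isoforms Ythdc1-204 and Ythdc1-207, and it ended at the annotated transcript end, with the centre 646 nt past the stop codon. Its whole length matched a stretch of chromosome 9 (chr9:101030463-101030674) at 98.6% identity, inside the gene Pccb. No peak of the list lay there. Whether reads of that copy were counted at Ythdc1 was not tested.

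Ythdc2 (ENSMUSG00000034653) peak 1 at chr18:44834557-44837359 spanned 2803 nt, of which 121 nt were exonic, in exons 4 and 5 of 30. Its fold enrichment was 3.79 and its p-value 0.049, the weakest of the 18. The class is coding isoform (Ythdc2-201, the one coding isoform), within the coding sequence. Peak 2 at chr18:44889154-44889454, of 301 nt, was enriched 2.17-fold (p-value 0.00339). It lay in the last exon of Ythdc2-201, 1523 nt past the stop codon, and also on the decay isoform Ythdc2-203.

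The Igf2bp genes encode the stabilising readers, and their 3 peaks were on coding isoforms. They shared a high fold enrichment but not a position, since 1 covered a whole transcript, 1 the end of the 3′ UTR and 1 a stretch of its proximal part.

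Igf2bp1 (ENSMUSG00000013415) had 1 peak at chr11:95957163-96005940, which spanned the whole gene (48778 nt). Its exonic part was 8378 nt, or 100% of the 15 exons of Igf2bp1-201, the one coding isoform, and it also met 4 of 4 processed transcripts. The fold enrichment was 19.0 and the p-value 0.000178. Peaks over a whole transcript were 4.51% of all peaks placed on a coding transcript and 16.1% of the strong ones. The authors' own label put this peak in the 5′ UTR, and 0 nt of the transcript lay outside it, so it carries no position within the gene. Exons of the miRNA gene Mir3063 and of the antisense gene Gm29202 also lay inside the span.

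Igf2bp2 (ENSMUSG00000033581) had 1 peak at chr16:22059009-22059398, of 390 nt, enriched 17.1-fold (p-value 0.000468). It covered the last bases of Igf2bp2-201, with the centre 1589 nt past the stop codon, and took up 10% of that transcript. The second coding isoform, Igf2bp2-202, ends before it. It also met the retained-intron isoforms Igf2bp2-206 and Igf2bp2-207 and the processed transcript Igf2bp2-210.

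Igf2bp3 (ENSMUSG00000029814) had the highest fold enrichment of the 18, 47.4, with a log10 p of -14.5, at chr6:49086663-49087203 (541 nt). The fold enrichment was at percentile 94.7 of all peaks. It lay on the one coding isoform, Igf2bp3-201, and on no other. It began 139 nt past the stop codon, with its centre 409 nt past it and 1440 nt of 3′ UTR after its end. Exons of Malsu1, on the plus strand, covered 89 nt of it, and the list gives no strand.

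Hnrnpa2b1 and Hnrnpc encode the HNRNP readers, and they held 7 peaks, 0 of them strong. A p-value under 0.001 was found in 7 of 7, and the most significant reader gene peaks were here. All 7 met a coding isoform.

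Hnrnpa2b1 (ENSMUSG00000004980) had 5 peaks, the most of any reader gene, numbered from 5′ to 3′, and 6 coding isoforms of 13. Peak 1 at chr6:51469685-51469894 (210 nt) was enriched 1.94-fold (log10 p -20.8). It met the first exon of 5 of 6 coding isoforms in the 5′ UTR, the first base of Hnrnpa2b1-203 included, together with the decay isoforms Hnrnpa2b1-207 and Hnrnpa2b1-209 and the retained-intron isoform Hnrnpa2b1-213. Peak 1 was the one reader peak centred in a 5′ UTR. Peak 2 at chr6:51465156-51466001 (846 nt) was enriched 1.78-fold (log10 p -67). It covered 63 nt of exon 8 of Hnrnpa2b1-203 and met 5 of 6 coding isoforms, 2 decay isoforms and 3 retained-intron isoforms, and 68.1% of its span was in no exon. The 63 coding nt had 2 copies elsewhere, and 1 of them was examined for genes and peaks. It was a locus at chr10:73202400-73202462, where the processed pseudogene Gm5778 lies, at 95.2% identity. That locus was inside the genomic spans of peaks assigned to Gm15398 (fold enrichment 159, span 125777 nt) and Pcdh15 (fold enrichment 36, span 1550396 nt). These spans take in introns, so whether the locus itself was enriched is not known.

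Peak 3 of Hnrnpa2b1 at chr6:51464138-51464797 (660 nt) was the most significant of the 18, with a log10 p of -187 at 2.01-fold. It covered 194 nt of exons 9 and 10, met 6 of 6 coding isoforms, 2 decay isoforms and 2 retained-intron isoforms, and was centred 208 nt before the end of the stop codon of Hnrnpa2b1-203. Its fold enrichment was below the median of all peaks. Copies elsewhere in the genome, on chromosome 7, were found for 42.8% of its 194 nt on Hnrnpa2b1-203.

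Peaks 4 and 5 of Hnrnpa2b1 lay on alternative 3′ UTRs. Peak 4 at chr6:51462824-51463183 (360 nt) was enriched 1.37-fold (log10 p -25.9). It met the coding isoforms Hnrnpa2b1-203, Hnrnpa2b1-204 and Hnrnpa2b1-210, 272 nt past their stop codon, and the retained-intron isoforms Hnrnpa2b1-208 and Hnrnpa2b1-211. In Hnrnpa2b1-201 and Hnrnpa2b1-202 the same bases are intronic. Peak 5 at chr6:51461171-51461927 (757 nt, 271 of them exonic) was enriched 1.4-fold (log10 p -9.43). It met Hnrnpa2b1-201, Hnrnpa2b1-202 and the decay isoforms Hnrnpa2b1-207 and Hnrnpa2b1-209 and lay beyond the end of the coding isoforms that carry peak 4. The retained-intron isoform Hnrnpa2b1-211 holds both. No annotated coding isoform carried both peaks. Copies on chromosome 7 were found for 55.6% of the bases of peak 4 and 0% of those of peak 5.

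Hnrnpc (ENSMUSG00000060373) had 2 peaks at the far end of its 1703-nt 3′ UTR. Peak 1 at chr14:52073649-52073858 (210 nt) was enriched 1.36-fold, the lowest of the 18 (p-value 0.000135). It met 4 of 11 coding isoforms, and the other 7 end before it. Peak 2 at chr14:52073380-52073470 (91 nt) was enriched 3.79-fold (p-value 0.00049). It ended 3 nt from the end of Hnrnpc-201 and met 2 of 11 coding isoforms, Hnrnpc-201 and Hnrnpc-202. Neither peak met a non-coding isoform.

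**Figure D2:**
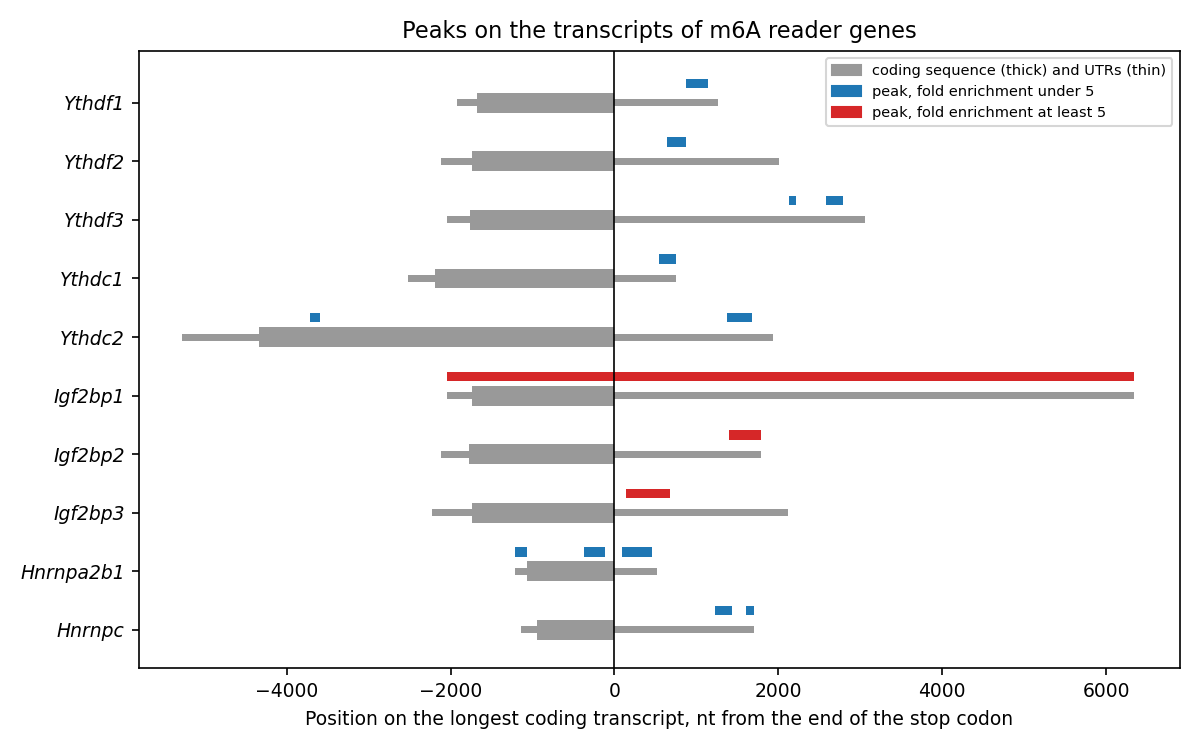
Longest coding transcript of each reader gene aligned on the end of the stop codon (x axis in nt), with coding sequence as thick and UTRs as thin grey bars and the exonic part of each peak above (blue under a fold enrichment of 5, red at least 5). The Igf2bp1 peak covers its transcript, the nearest other 3′ UTR peaks begin 93 nt (Hnrnpa2b1 peak 4) and 139 nt (Igf2bp3) past the stop codon, and the 2 peaks off the longest coding transcript (Ythdc1 peak 1 and Hnrnpa2b1 peak 5) are not drawn.

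Seen together, the reader gene peaks were mostly centred in 3′ UTRs. The centre of the exonic part could be placed on the longest coding transcript for 16 of 18 peaks. It lay in the 3′ UTR in 12 (75%, 95% Wilson interval 50.5% to 89.8%, counting error only), beside 56.5% of 15721 placed peaks overall. The 12 include the Igf2bp1 peak, which covers its whole transcript and so has no position of its own. The centre lay in the coding sequence in 3 (18.8%, beside 33.6%) and in the 5′ UTR in 1 (6.25%, beside 9.94%). The peak lay wholly in the last exon in 11 of 16, beside 58.8% of all placed peaks.

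No reader peak, 0 of 16, was centred within 200 nt of the stop codon (Wilson interval 0% to 19.4%), whereas 22.3% of all placed peaks were, and 26.6% of those with a fold enrichment under 5. The interval covers counting error only, and peaks of 1 gene are not independent. Nearest were Hnrnpa2b1 peak 3, centred 208 nt before, and peak 4, centred 272 nt after. Within 400 nt there were 18.8% of reader peaks and 36% of all placed peaks. The absence rested on the transcript model and on the use of the centre. On any coding isoform 2 of 17 peaks (11.8%) were within 200 nt, and no share over all peaks was counted this way. Both were of Hnrnpa2b1 on Hnrnpa2b1-201 (peak 3 at 148 nt before and peak 5 at 153 nt after). Peak 3 was also 148 nt before on Hnrnpa2b1-210. On Hnrnpa2b1-205, which has no annotated 3′ UTR, it was 120 nt before the end of the coding sequence. Counting any base of a peak 25% were within 200 nt, beside 34.8% of all placed peaks. Both of these alternatives were chosen after seeing the data.

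Within the 3′ UTR the 12 reader peaks had a median position at 78.3% of its length, beside 58.9% for 8881 3′ UTR peaks overall. The centre lay past the midpoint of the 3′ UTR in 9 of 12 (75%), beside 57.3%. The exceptions were Ythdf2 at 37.6%, Igf2bp1 at 33.9% and Igf2bp3 at 19.3%. Without Igf2bp1, whose peak has no position of its own, the median of the other 11 was 78.7%. The peak end lay within 300 nt of the transcript end in 9 of 12 (75%), beside 58.3%, and within 5 nt in 4 (33.3%), beside 31.7%. Without Igf2bp1 these were 8 (72.7%) and 3 (27.3%) of 11. Beside them stand 56.9% and 29.7% of all 3′ UTR peaks that cover under 90% of their transcript. The 3′ UTRs themselves were of like length, with a median of 1860 nt for the reader peaks and 1605 nt overall.

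**Figure D3:**
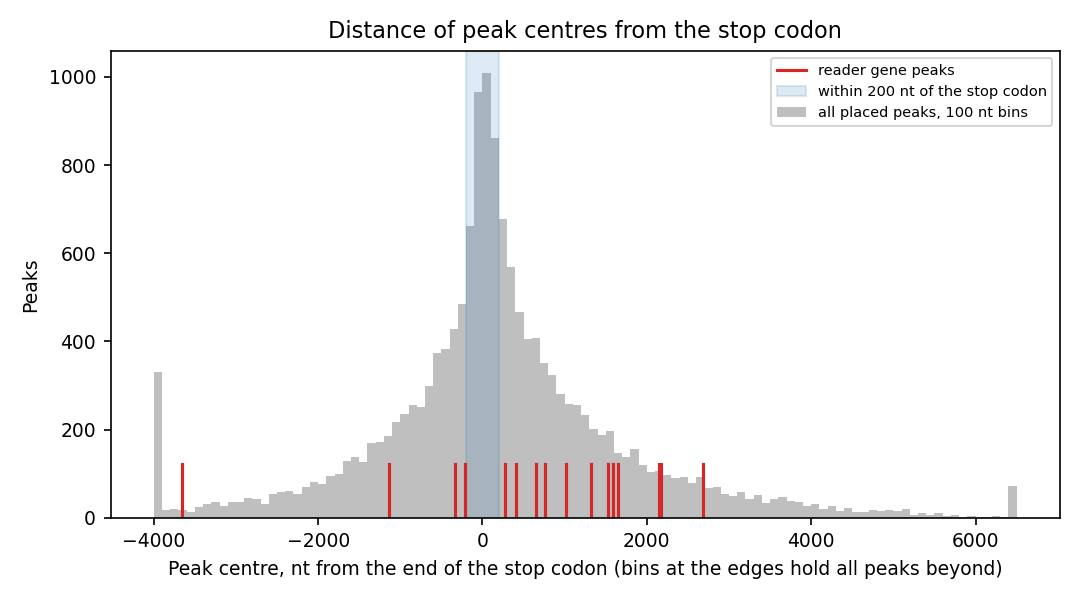
Number of placed peaks by distance of the centre from the end of the stop codon in nt (grey, 100-nt bins, with peaks beyond either edge in the outermost bins) and the 16 placed reader gene peaks (red lines). The grey bars are highest inside the shaded 200 nt on either side of the stop codon, which hold 22.3% of all placed peaks and 0 of the reader peaks.

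DRACH sites were counted on the strand of the gene only, in the exonic part of each peak, and their density in the reader peaks was close to that of all peaks. There were 257 sites in 13013 nt, or 19.7 per kb, beside 20.3 per kb over all peaks. Igf2bp1 peak 1, over a whole transcript, held 172 of these sites and 8378 of these nt. Without Igf2bp1, an alternative chosen after seeing the data, the density was 18.3 per kb. On the longest coding transcripts of the reader genes the density was 20 per kb inside peaks and 19.7 per kb outside them, and without the Igf2bp genes it was 17.6 inside and 19.7 outside. Of the 9 genes with sequence on both sides, 3 (Ythdf3, Igf2bp2 and Hnrnpc) had a higher density inside.

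Peak by peak, of 18 peaks, 17 had a number of DRACH sites within the interquartile range of peaks whose length was within 10% of theirs. Igf2bp3 peak 1 had 10, beside a median of 10 in 762 such peaks (100% of which held a site), and Igf2bp2 peak 1 had 10, beside a median of 8 in 1465 (99.7%). Ythdf1 peak 1 had 5 (median 5 in 1069, 98.8% with a site) and Ythdc1 peak 2 had 3 (median 4 in 1315, 97.3%). The exception was Hnrnpa2b1 peak 1, with 0 sites in its 142 nt of the 5′ UTR of Hnrnpa2b1-203, while 91.9% of 1718 peaks of like length held at least 1. All 210 nt of the peak lay in exons, and those outside Hnrnpa2b1-203 were not searched. The GC content of the 142 nt was 66.2%. Among 1563 peaks centred in a 5′ UTR, 24.2% held no DRACH site, beside 9.39% of all peaks with a sequence.

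The letters GGAC, which with A or C or T after them form one of the DRACH cores, were present in 7 of 18 reader peaks. Pooled, they occurred at 3.3 per kb beside 3.74 per kb over all peaks. The Igf2bp1 peak, which covers a whole transcript, held 35 of these sites. In the peaks of the readers other than the Igf2bp genes the density was 1.89 per kb. No share over all peaks is given for the count of 7. Igf2bp2 peak 1 held GGAC, as did 71.4% of peaks of like length. Igf2bp3 peak 1 held none, while 83.5% of peaks of like length held it. Ythdf1 peak 1 and Hnrnpa2b1 peak 4 also held none, beside 66.6% and 67.6% of peaks of like length that did. Of the 85 DRACH sites in the reader peaks other than Igf2bp1, the commonest were AAACT (14), TAACA (12) and AAACA (10), with 3 each of GGACA and GGACC.

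Fold enrichment and significance were far apart in some of these peaks. Hnrnpa2b1 peak 3 combined a log10 p of -187 with 2.01-fold enrichment, and Ythdc1 peak 1 combined 9.48-fold enrichment with a log10 p of -1.69. Of the 4 strong reader peaks 3 had a p-value under 0.001, and over all peaks 3941 of 7179 strong ones had. The log10 p of these 3 was -14.5 at Igf2bp3, -3.75 at Igf2bp1 and -3.33 at Igf2bp2. How fold enrichment and significance go together over all peaks was not tested.

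**Figure D4:**
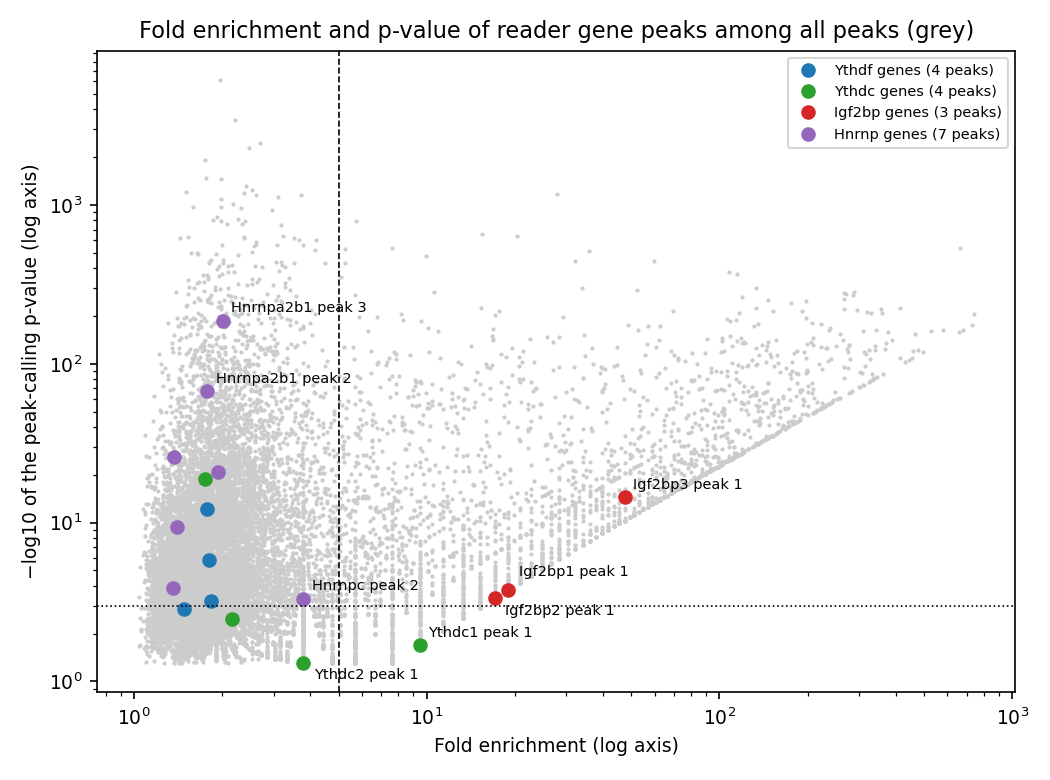
Fold enrichment against -log10 of the peak-calling p-value (both log axes) for all 20727 peaks (grey) and the 18 reader gene peaks coloured by family, with dashed and dotted lines at a fold enrichment of 5 and a p-value of 0.001. Hnrnpa2b1 peaks 2 and 3 stand high at fold enrichments near 2, whereas Igf2bp1, Igf2bp2 and Ythdc1 peak 1 lie on the vertical strings of grey points at the lower right.

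The high fold enrichments of the list took few distinct values. Among all peaks with a fold enrichment of 5 to 30, 78.4% lay on whole multiples of 1.897, within the rounding of the printed value. The 4 strong reader peaks were all on such multiples, Ythdc1 peak 1 at 5 steps, Igf2bp2 at 9, Igf2bp1 at 10 and Igf2bp3 at 25, and Ythdc2 peak 1 and Hnrnpc peak 2 shared the value 3.79 at 2 steps. The exact pair of fold enrichment and p-value at Ythdc1 peak 1 was carried by 845 peaks of the list, that of Ythdc2 peak 1 by 199, that of Igf2bp2 by 178 and that of Igf2bp1 by 138. Igf2bp3 peak 1 and Hnrnpc peak 2 had a pair of their own. Over all peaks 14% shared their pair with more than 100 peaks. The read counts behind these values were not analysed here.

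Genes that install or remove m6A, and genes of proteins that work with the readers, were described in the same way from lists chosen with results of these data known. Of 15 writers, erasers and their cofactors, 13 had a peak, with 26 peaks, 6 of them strong (23.1%), a median fold enrichment of 2.02 and all 26 on a coding isoform. The list's highest folds on coding isoforms were 28.2 at Zcchc4, which methylates ribosomal RNA, 9.42 at Zc3h13, a scaffold of the writer complex, and 7.59 at both Cbll1, another subunit of that complex, and Mettl16, which methylates U6 RNA. Mettl3, the catalytic subunit, and Rbm15b, an adaptor of the complex, had no peak. Of their 23 placed peaks 9 (39.1%) were centred within 200 nt of the stop codon and 52.2% in the 3′ UTR, where the readers had 0 of 16 and 75%. That difference was not tested.

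Of 18 reader partners (deadenylases, decay, splicing, export and translation factors), 16 had a peak, with 34 peaks, 4 of them strong (11.8%) and a median fold enrichment of 1.71. On a coding isoform lay 28 (82.4%). The highest folds on coding isoforms were 22.8 at Matr3, a nuclear matrix protein, 4.74 at Cnot8, a CCR4-NOT deadenylase, and 2.84 at Upf1, the helicase of nonsense-mediated decay. Rida and Meioc, partners of YTHDF2 and YTHDC2, had no peak. Of 26 placed peaks 84.6% were in the 3′ UTR and 19.2% within 200 nt of the stop codon.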

How the data were processed

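MeRIP-seq of splenic NK cells gave 4 libraries in 2 groups, 2 m6A immunoprecipitates and 2 inputs. After trimming, the authors mapped reads to GRCm38 using HISAT2 (1.0), called peaks using exomePeak and annotated these using ChIPseeker (1.0). How replicates were combined is not given in the sources used here. The deposited list holds a fold enrichment, which is a ratio of immunoprecipitate to input made by the authors, and a score, which is the peak-calling p-value on a log10 scale. The deposited width of a peak counts the bases of its span, introns included. Columns with a value per sample numbered 0, so depth is unknown.

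Of 20751 rows, 24 repeats were dropped. Peaks were assigned by the authors' gene identifier and overlaid on GENCODE M21 exons. The isoform class needs 1 nt of exon overlap. The centre of the exonic part was placed on the longest spliced coding transcript. Copies were sought with megablast (BLAST 2.17.0) in GRCm38.p6 at 95% identity over 60 nt. Python 3.11.15, pandas 2.3.3, scipy 1.17.1 and matplotlib 3.10.9 were used. Placement, motif and step searches were tested on simulated data. Wilson intervals (95%) cover counting error only. No test was run, since no result has replicate values. The members and gene lists were chosen with earlier results of these data known. All 10 genes and their peaks are named, for other lists the at most 3 genes with the highest fold on a coding isoform (a tie kept) and genes without a peak, and for T cell markers those without a peak. Results of some other marker genes and some sequence windows are not reported here. Alternatives changed fold, p-value, transcript model, peak position, window and motif.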

Additional observations from a re-analysis of the deposited data

How the results depend on the processing

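For 8 results 35 alternatives were computed, 4 of them chosen after seeing the data, and 6 of the 35 moved a count by over 1.5 times or a share, density or median out of its 95% interval. With 18 peaks these intervals are wide, so a value that stayed inside one may still differ much, as the median does for the strongest peak of each gene. The number of reader peaks (18) was counted without a fold threshold. It fell when one was applied, with 8 peaks at a fold enrichment of at least 2 and 4 at 5. Requiring 5-fold enrichment left 4 of the 10 reader genes with a peak. Other motifs gave other densities by construction, 3.3 per kb for GGAC and 13.3 per kb for RRACH, which leaves out DRACH cores that begin with T, against 19.7 for DRACH. Counting any base of a peak, chosen after seeing the data, put 25% of reader peaks within 200 nt of the stop codon, against 0% by centre. Strong reader peaks numbered 6 at a fold threshold of 3 and 3 at 10, with a p-value under 0.001 or on coding isoforms. The median fold enrichment (1.89) ran from 1.8 without the Igf2bp genes to 3.79 for the strongest peak of each gene, and the 3′ UTR share from 66.7% by the authors' label to 84.6% by the centre of the genomic span. No paired analysis was possible because the list holds no value per library, and leaving out each replicate could not be run for the same reason. The unknown depth limits every value, and genes without a peak are not shown to lack m6A.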
